A study of Mus musculus with 14 samples.

Results

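The genes described here are 47 interferon-stimulated genes and interferon receptors, chosen by their symbols as known targets or receptors of type I and type II interferon, and read from the deposited counts of 24091 genes. All 47 were among the 12248 genes with enough reads to be tested. They were followed in bulk RNA-seq of spleen T cells from a mouse model of chronic myeloid leukemia (CML), to ask how interferon-responsive transcripts differed between a chronic phase (CP) and a blast crisis (BC) model. CP CML mice were Mir142+/+BCR-ABL (n = 8) and BC CML mice Mir142−/−BCR-ABL (n = 6), with 1 library per mouse and 200000 sorted T cells per library.

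Both groups carried the SCLtTA/BCR-ABL transgenes on a CD45.2 C57Bl/6j background, in which the tetracycline transactivator driven by the Scl enhancer switches on BCR-ABL in blood stem and progenitor cells once tetracycline is withdrawn, and both had been induced by withdrawal for 3 weeks. The study used males and females of 6 to 10 weeks. The Mir142 deletion was germline and so was present in every cell of the BC CML mice, T cells included, and CP CML mice carried the same transgenes without it. The mouse names carry 1 prefix in all CP CML libraries and another in all BC CML libraries, so that a cohort difference and the genotype cannot be told apart. Mir142 had 302 to 650 reads in the CP CML libraries and 0 reads in every BC CML library, where a count of 0 allows up to 3 reads.

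Type I interferons bind the receptor of Ifnar1 and Ifnar2, whose kinases Jak1 and Tyk2 phosphorylate STAT proteins such as Stat2. With Irf9 they form the complex ISGF3, which binds the interferon-stimulated response element (ISRE) in the promoters of antiviral genes. Type II interferon (interferon-γ), made largely by T and NK cells, binds Ifngr1 and Ifngr2 and acts through the gamma-activated site (GAS), and its typical targets include Irf1 and the guanylate-binding proteins. In T cells interferon signalling is known for shaping expansion, survival and the response to chronic antigen.

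The libraries held 15703702 to 19914531 reads. T cell identity markers (12 genes with reads, such as Cd3e and Lck) summed to 4058 to 4533 normalized counts (CPM, reads scaled to the library size) in CP CML and 4537 to 5035 CPM in BC CML, so the label held in every library. Most other cell type markers moved with the group. Erythroid markers overlapped, with 15.2 to 62.9 CPM in CP CML and 41.4 to 71.7 CPM in BC CML (1 of 4 tested higher). Proliferation markers overlapped too, with 627 to 793 and 572 to 969 CPM (2 of 8 lower). Myeloid markers summed to 70.6 to 730 CPM in CP CML and 849 to 2253 CPM in BC CML (15 of 16 higher), NK cell markers to 155 to 205 and 478 to 652 CPM (6 of 6 higher), and B cell markers to 57.5 to 173 and 101 to 493 CPM (6 of 7 tested higher). Plasmacytoid dendritic cell markers, a list that includes the member Bst2, summed to 107 to 162 and 297 to 423 CPM (3 of 4 tested higher). Ccr9 was the largest part of this sum (mean 82.0 CPM in CP CML and 206 CPM in BC CML), and the paper lists it among the markers of T cell clusters. Siglech (mean 0.06 and 0.74 CPM), Cox6a2 (0.05 and 1.37 CPM) and Klk1 (0.008 and 0.009 CPM) had too few reads to be tested. The sum therefore does not stand for this cell type alone. Naive T cell markers summed to 5729 to 7157 and 3517 to 4913 CPM (7 of 8 lower), and effector and memory T cell markers to 802 to 995 and 1668 to 2311 CPM (11 of 13 higher). Eomes (mean 77.6 CPM in CP CML and 257 CPM in BC CML) is counted in both this list and the NK cell list, so the 2 sums are not separate. Of the NK cell genes, Klra8 had 0 to 5 reads in CP CML and 185 to 326 reads in BC CML. No marker list was at 0 in either group. All 8 CP CML and 6 BC CML libraries enter each test. The part of these cell types in the results below was not tested, and a fit with a myeloid score is given later. In bulk RNA a different share of a cell type and a different amount of RNA per cell cannot be told apart.

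Of the 47 genes, 33 were higher and 5 were lower in BC CML than in CP CML T cells, and 9 did not pass the test (edgeR quasi-likelihood test, Benjamini-Hochberg adjusted p below 0.05 over all genes tested). The 9 guanylate-binding and immunity-related GTPases were all higher, and so were both chains of the type I receptor. The 5 lower genes were Ifngr2, Stat2, Irf9, Parp9 and Trim30a, so that Stat2 and Irf9, both of ISGF3, were among those that fell. The 9 that did not pass were Ifngr1, Dhx58, Oas1a, Oas2, Rsad2, Bst2, Usp18, Dtx3l and Rtp4.

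These counts stand against a background in which 65.2% of all genes tested were called, 32.6% higher and 32.7% lower. Of the 47 genes, 80.9% were called, 70.2% higher and 10.6% lower. Their median log2 fold change was 0.45, where the median of all genes tested was -0.01. By size, 8 of the 47 were higher by at least 1 on the log2 scale, against 10.1% of all genes, and none was lower by as much, against 2.87%. In 18 of the 47 the values of the CP CML and BC CML mice did not overlap, against 36.9% of all genes. BC CML was the higher group in 17 of these (19.3% of all genes) and the lower group in Trim30a alone (17.6% of all genes).

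**Figure D1:**
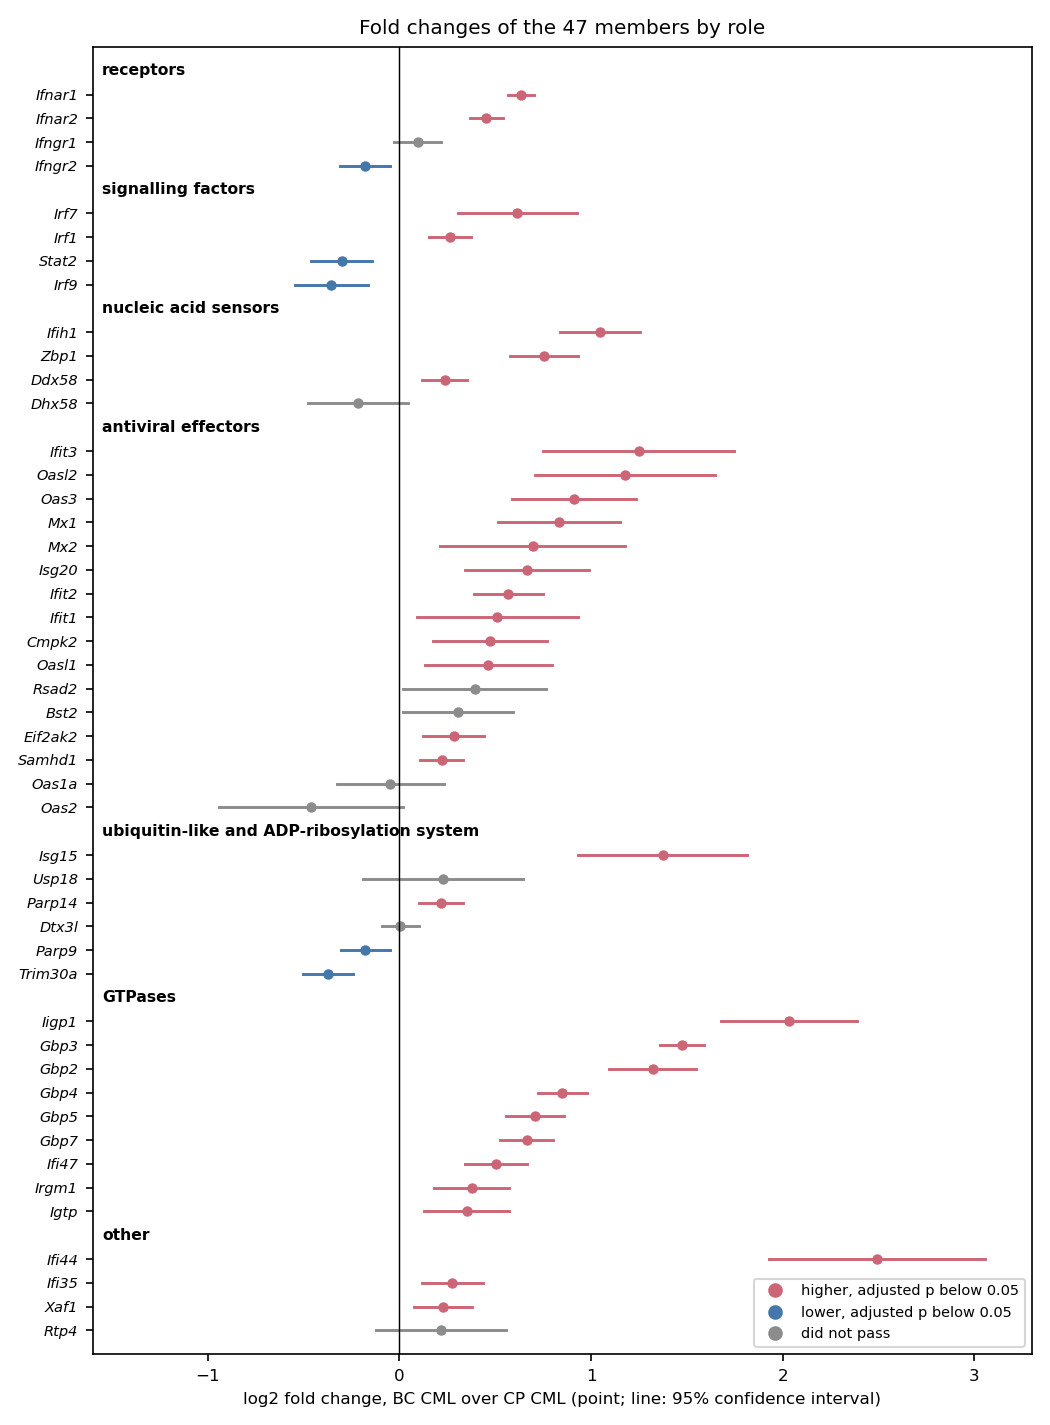
Log2 fold change of BC CML over CP CML T cells (x axis) for each of the 47 genes (y axis, grouped by role), with 95% confidence intervals as lines, in red for genes higher, blue for genes lower and grey for genes that did not pass an adjusted p of 0.05. All 9 GTPases lie to the right of 0, and the 5 lower genes are a receptor, 2 signalling factors and 2 genes of the ubiquitin-like and ADP-ribosylation system.

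The GTPases had a median log2 fold change of 0.71 (9 of 9 higher), the nucleic acid sensors 0.50 (3 of 4 higher) and the antiviral effectors 0.49 (12 of 16 higher, none lower). The receptors had a median of 0.27 (2 higher, 1 lower), the ubiquitin-like and ADP-ribosylation genes 0.11 (2 higher, 2 lower), and the signalling factors -0.02 (2 higher, 2 lower). Among the 4 remaining genes 3 were higher, with a median of 0.25. Without BC CML replicate 5, a mouse that stood apart in these genes (described below), the median of the effectors was 0.31 (10 higher, 1 lower), that of the ubiquitin-like and ADP-ribosylation genes -0.01 and that of the signalling factors -0.05, 1 sensor was lower, and the GTPases (0.70, 9 of 9 higher) and receptors (0.28) hardly moved.

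The promoters of these genes were searched because the response elements that define the family lie there. RefSeq promoter windows on GRCm38.p6, from 250 bases before to 50 after the start of the gene, were matched by symbol for 36 of the 47. The ISRE was taken as GAAANNGAAA or, on the other strand, TTTCNNTTTC, and the GAS as TTCNNNGAA, which reads the same on both strands. The ISRE letters were found in 18 of the 36 windows (50.0%), against 3.24% of the 9545 windows of genes tested and 3.44% of all 32851 windows. The GAS letters were found in 13 of the 36 (36.1%), against 6.93% and 8.30%, and 6 windows held both. Since the genes were chosen as interferon targets, these shares describe the family and are no result of the comparison. Within it, an ISRE was found in 13 of 27 windows of genes that were higher, in 2 of 4 of genes that were lower and in 3 of 5 of genes that did not pass. A GAS was found in 11 of 27, 0 of 4 and 2 of 5. The GTPases had the ISRE in 6 of 7 windows, and the receptors in 0 of 4.

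The stretches below are shown because they carry the ISRE in GTPases, effectors and Isg15, all higher in BC CML, and in Stat2 and Trim30a, the lower genes that hold one. Each is read 5′ to 3′ on the strand of the gene, with the first ISRE match of the stretch in capitals and the mm10 (GRCm38) position given after the gene name.
Gbp2 chr3:142620579-142620638 (+): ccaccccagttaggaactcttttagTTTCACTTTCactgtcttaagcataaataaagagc
Gbp3 chr3:142559974-142560033 (+): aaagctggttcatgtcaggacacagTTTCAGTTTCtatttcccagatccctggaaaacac
Gbp5 chr3:142496744-142496803 (+): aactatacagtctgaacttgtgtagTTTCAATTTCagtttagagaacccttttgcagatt
Gbp7 chr3:142530258-142530317 (+): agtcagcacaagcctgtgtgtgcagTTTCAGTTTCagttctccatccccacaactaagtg
Igtp chr11:58199497-58199555 (+): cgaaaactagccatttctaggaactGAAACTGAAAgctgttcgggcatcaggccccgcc
Ifit3 chr19:34583348-34583407 (+): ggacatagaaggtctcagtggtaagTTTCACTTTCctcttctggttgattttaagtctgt
Oas3 chr5:120777700-120777759 (-): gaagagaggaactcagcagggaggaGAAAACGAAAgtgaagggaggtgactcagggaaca
Isg15 chr4:156200862-156200921 (-): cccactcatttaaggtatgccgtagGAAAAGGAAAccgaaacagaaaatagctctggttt
Stat2 chr10:128270251-128270310 (+): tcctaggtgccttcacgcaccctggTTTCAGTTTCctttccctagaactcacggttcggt
Trim30a chr7:104465195-104465254 (-): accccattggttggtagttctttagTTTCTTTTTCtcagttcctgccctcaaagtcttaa
The Gbp3 and Gbp7 stretches, of genes that rose, and the Stat2 stretch, of a gene that fell, hold the same 10 letters TTTCAGTTTC. The Gbp3 stretch holds 1 further match and the Isg15 stretch 2, which overlap the first or each other and stand partly or wholly in lower case. A match describes the letters in the window and is neither a shown binding site nor a cause.

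The GAS letters are shown for the interferon-γ target Irf1 and for the type I receptor chain Ifnar1, as the element by which both windows matched.
Irf1 chr11:53769899-53769957 (+): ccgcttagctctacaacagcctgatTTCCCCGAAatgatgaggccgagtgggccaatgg
Ifnar1 chr16:91485200-91485228 (+): ggcgggggcgTTCACGGAAggggcggggc

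The receptor genes Ifnar2, Ifnar1 and Ifngr2 lie in this order on chromosome 16 (mm10), Ifnar2 at chr16:91372783-91405587, Ifnar1 at chr16:91485215-91510522 and Ifngr2 at chr16:91547094-91564007. Ifnar1, the chain that carries Tyk2, had 210, 225 and 237 CPM as lowest, median and highest value in CP CML and 334, 348 and 359 CPM in BC CML. The groups were wide apart and each was narrow. Its log2 fold change was 0.64 (SE 0.03, adjusted p = 1.55e-11 by the edgeR quasi-likelihood test). Ifnar2, the chain that binds interferon first with high affinity and carries Jak1, had 88.2, 95.8 and 103 CPM in CP CML and 125, 131 and 136 CPM in BC CML. No BC CML mouse fell within the CP CML range, and the log2 fold change was 0.45 (SE 0.04, adjusted p = 2.80e-08 by the same edgeR test).

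Neither chain of the type II receptor was called higher with all mice. Ifngr1, the ligand-binding chain of the interferon-γ receptor, had 315, 338 and 386 CPM in CP CML and 322, 369 and 421 CPM in BC CML. The groups overlapped over most of their range, and the log2 fold change of 0.09 (95% confidence interval -0.03 to 0.22, edgeR adjusted p = 0.16) did not pass. Without BC CML replicate 6 it was 0.13 and passed (edgeR adjusted p = 0.0467). Ifngr2, the signalling chain, had 39.6, 40.5 and 44.0 CPM in CP CML and 30.4, 36.3 and 42.2 CPM in BC CML. It was lower in BC CML, with a log2 fold change of -0.18 (SE 0.06, edgeR adjusted p = 0.0174), although the highest BC CML mice lay inside the CP CML range. Per kilobase of gene length, Ifngr1 had the highest level of the 4 chains in both groups (166 and 177 RPKM, mean of CP CML and of BC CML), Ifnar1 had 31.7 and 49.3 RPKM, Ifnar2 30.0 and 41.2 RPKM, and Ifngr2 the lowest level (19.9 and 17.6 RPKM).

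Among the signalling factors, the gene for Stat2, the STAT that is specific to type I and type III interferon signalling, had 81.1, 90.4 and 106 CPM in CP CML and 63.1, 72.4 and 85.8 CPM in BC CML. The highest BC CML values lay inside the CP CML range, so the groups overlapped. The log2 fold change was -0.30 (SE 0.08, edgeR adjusted p = 0.0022). Irf9, the DNA-binding partner in ISGF3, had 87.3, 99.4 and 108 CPM in CP CML and 65.4, 75.1 and 103 CPM in BC CML, and fell by 0.36 on the log2 scale (SE 0.09, edgeR adjusted p = 0.00242). BC CML replicate 5 held the highest BC CML value, and without this mouse no BC CML value of Irf9 overlapped CP CML and the log2 fold change was -0.46.

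The 2 other factors rose. Irf7, which amplifies type I interferon production, had 54.2, 58.3 and 67.6 CPM in CP CML and 67.6, 84.0 and 147 CPM in BC CML. The ranges met at their edges without overlapping, and the value of 147 CPM, of BC CML replicate 5, stood far above the next highest of 94.8 CPM. The log2 fold change was 0.61 (SE 0.14, edgeR adjusted p = 0.00184) with all mice and 0.42 without this mouse. Irf1, a direct interferon-γ target and activator of Gbp genes, had 235, 263 and 290 CPM in CP CML and 280, 319 and 330 CPM in BC CML. Its ranges overlapped slightly, and the log2 fold change was 0.26 (SE 0.05, edgeR adjusted p = 0.000252).

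Of the nucleic acid sensors, Ifih1 (MDA5, a sensor of long double-stranded RNA) had 37.7, 39.5 and 46.6 CPM in CP CML and 66.1, 81.2 and 115 CPM in BC CML. No value of the BC CML mice came down to the CP CML range, with a log2 fold change of 1.05 (SE 0.10, edgeR adjusted p = 1.08e-07). Zbp1, a sensor of Z-form nucleic acid that can start necroptosis, had 107, 124 and 139 CPM in CP CML and 177, 194 and 253 CPM in BC CML. It too did not overlap, at a log2 fold change of 0.75 (SE 0.08, edgeR adjusted p = 7.86e-07). Ddx58 (RIG-I, a sensor of 5′-triphosphate RNA) had 165, 190 and 208 CPM in CP CML and 202, 221 and 238 CPM in BC CML, a smaller shift with a slight overlap and a log2 fold change of 0.24 (SE 0.05, edgeR adjusted p = 0.00107). Dhx58 (LGP2), a regulator of the other two RNA sensors, had 21.3, 23.2 and 27.0 CPM in CP CML and 14.6, 19.0 and 29.3 CPM in BC CML. The BC CML mice spread past the CP CML range at both ends, and the log2 fold change of -0.21 (95% confidence interval -0.48 to 0.05) did not pass (edgeR adjusted p = 0.138).

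The antiviral effectors were the largest group, with 12 of 16 higher. Ifit3, which stabilises Ifit1 on viral RNA in human cells and belongs to a cluster on chromosome 19, had 12.1, 17.6 and 22.2 CPM in CP CML and 25.7, 39.2 and 73.1 CPM in BC CML. The groups did not overlap, and the BC CML mice differed among themselves by more than the CP CML mice. The log2 fold change was 1.25 (SE 0.23, edgeR adjusted p = 0.0003). Oasl2, an oligoadenylate synthetase-like protein, had 9.24, 11.2 and 14.2 CPM in CP CML and 14.3, 23.2 and 45.0 CPM in BC CML, with a log2 fold change of 1.18 (SE 0.22, edgeR adjusted p = 0.000278). Its ranges only just kept apart. Oas3, a synthetase of the 2′-5′ oligoadenylates that activate RNase L, had 42.7, 69.2 and 78.3 CPM in CP CML and 88.4, 128 and 148 CPM in BC CML. It did not overlap, and its log2 fold change was 0.91 (SE 0.15, edgeR adjusted p = 0.000106).

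The paralogs within this group did not move together. Of the oligoadenylate synthetase genes on chromosome 5, Oas3 and Oasl2 rose, Oasl1 rose by 0.46 on the log2 scale, and Oas1a (-0.05, 95% confidence interval -0.33 to 0.23) and Oas2 did not pass. Oas2 lies next to Oas3 and had 21.8, 33.4 and 38.6 CPM in CP CML and 14.8, 18.3 and 36.9 CPM in BC CML, and its log2 fold change was -0.46 (95% confidence interval -0.94 to 0.02, edgeR adjusted p = 0.0846). Of the 6 BC CML mice only replicates 1 and 5, with 28.1 and 36.9 CPM, were above the lowest CP CML value. Without replicate 5 the Oas2 log2 fold change was -0.67 and passed the test (edgeR adjusted p = 0.008), and with a myeloid marker score in the fit it was -0.03 and did not (edgeR adjusted p = 0.951). Ifit1 and Ifit2, which bind viral RNA and limit its translation, rose by 0.51 and 0.57, but the Ifit1 call (edgeR adjusted p = 0.0328) was lost without any 1 of 7 mice, replicates 1, 3, 6 and 8 of CP CML and 1, 4 and 5 of BC CML (log2 fold change 0.27 to 0.51, adjusted p = 0.0501 to 0.0752).

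Mx1 and Mx2, dynamin-like GTPases that block viral replication, had log2 fold changes of 0.83 and 0.70, and Mx1 did not overlap between the groups. The laboratory strain C57BL/6 is known to carry a defective Mx1 allele, so its transcript does not stand for a working protein. Isg20 (an exonuclease) rose by 0.67, Cmpk2 (a nucleotide kinase) by 0.47, Eif2ak2 (PKR, which stops translation on double-stranded RNA) by 0.28 and Samhd1 (a dNTP hydrolase) by 0.22. Without BC CML replicate 5 the log2 fold change of Cmpk2 was 0.29 and that of Mx2 0.46. Samhd1 had the highest level per length of the effectors, 87.7 and 102 RPKM in CP CML and BC CML. Rsad2 (viperin) and Bst2 (tetherin, also a marker of plasmacytoid dendritic cells) had log2 fold changes of 0.39 and 0.30 and did not pass (edgeR adjusted p = 0.0595 and 0.0594), but both passed in 3 of the fits that left out 1 BC CML mouse (without replicate 2, 3 or 6 for Rsad2, and 3, 4 or 6 for Bst2) and under the likelihood ratio test and DESeq2. Without BC CML replicate 5 they were smaller, 0.19 for Rsad2 and 0.14 for Bst2 (edgeR adjusted p = 0.219 and 0.194).

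**Figure D2:**
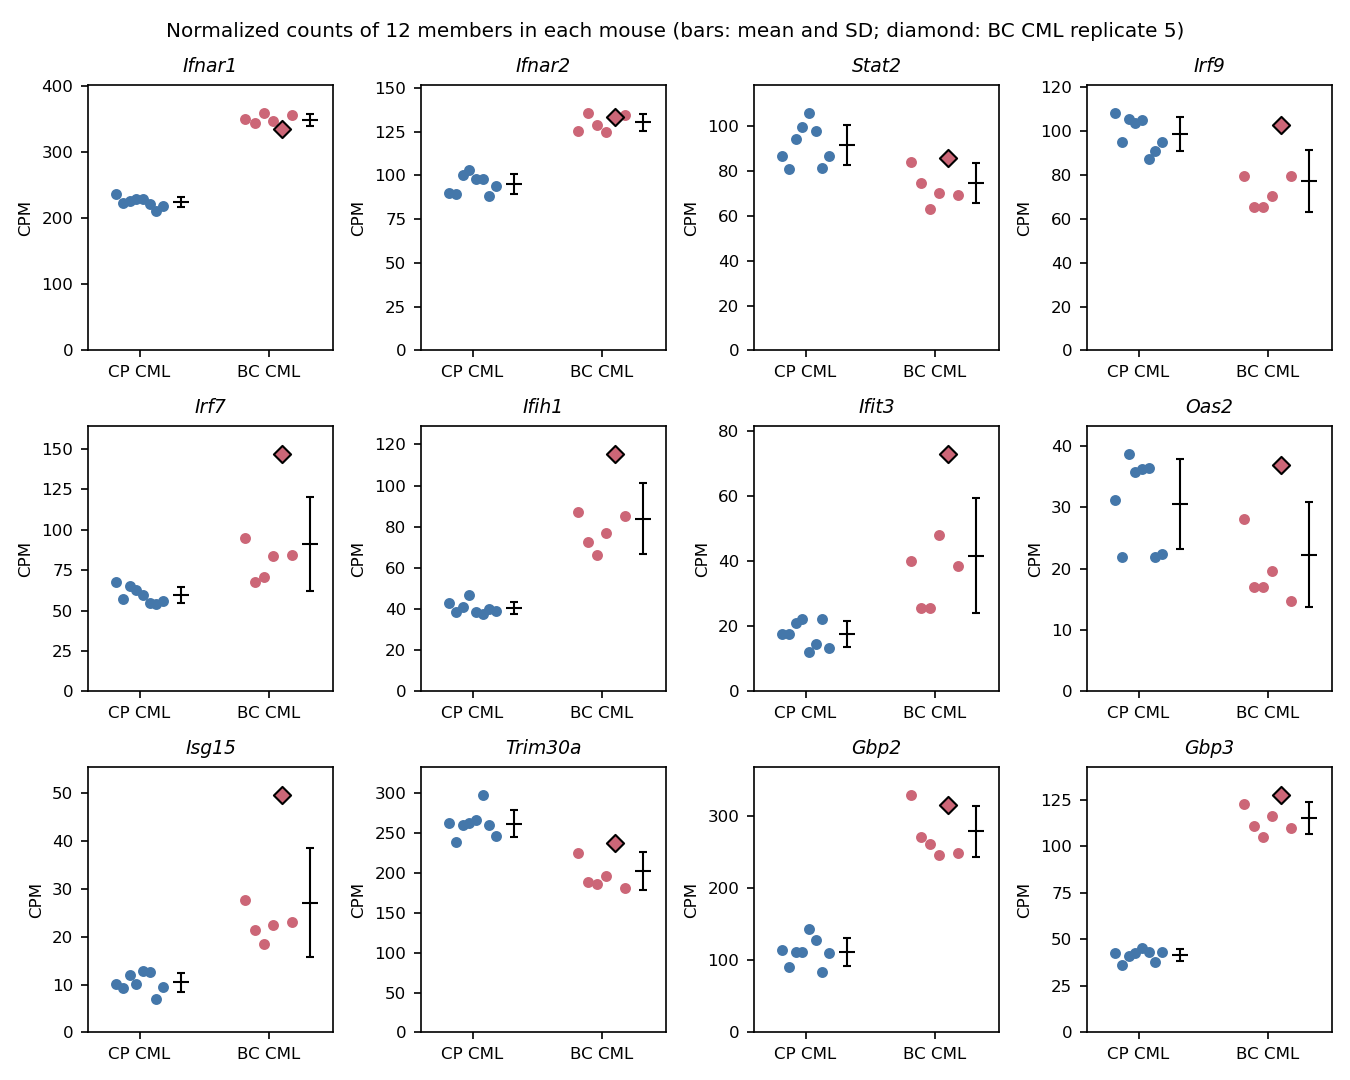
CPM (y axis, from 0) of 12 of the 47 genes in each of the 8 CP CML (blue) and 6 BC CML (red) mice, with the mean and SD as black bars and BC CML replicate 5 as a diamond. Ifnar1, Ifnar2, Gbp2 and Gbp3 separate the groups without overlap, and the diamond lies above the other BC CML mice in Stat2, Irf9, Irf7, Ifih1, Ifit3, Oas2, Isg15, Trim30a and Gbp3.

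The ubiquitin-like and ADP-ribosylation genes split. Isg15, the ubiquitin-like modifier that gives the system its name, had 7.05, 10.1 and 12.9 CPM in CP CML and 18.5, 22.7 and 49.6 CPM in BC CML. All BC CML mice were higher, replicate 5 by far the most, and the log2 fold change was 1.37 (SE 0.21, edgeR adjusted p = 3.33e-05) with all mice and 1.11 without it. Usp18, which removes Isg15 and damps the type I receptor, had 15.4, 20.8 and 24.5 CPM in CP CML and 13.5, 22.2 and 41.0 CPM in BC CML. It did not pass, at a log2 fold change of 0.23 (95% confidence interval -0.19 to 0.65, edgeR adjusted p = 0.32), and without replicate 5 the log2 fold change was -0.00.

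Trim30a, a TRIM protein that limits NF-κB signalling, had 239, 262 and 297 CPM in CP CML and 181, 192 and 238 CPM in BC CML. It was the only one of the 47 in which all values of BC CML lay under the CP CML range, with a log2 fold change of -0.37 (SE 0.06, edgeR adjusted p = 5.40e-05). Parp14, an ADP-ribosyltransferase, had 295, 305 and 346 CPM in CP CML and 312, 359 and 407 CPM in BC CML and rose by 0.22 (SE 0.05, edgeR adjusted p = 0.00202). Its neighbours Parp9 and Dtx3l, which form an ADP-ribosylating ubiquitin ligase, share a start region on chromosome 16 and are read in opposite directions. Parp9 (129 to 144 CPM in CP CML, 104 to 147 CPM in BC CML) fell by 0.18 and Dtx3l (215 to 251 and 203 to 248 CPM) had a log2 fold change of 0.00 (95% confidence interval -0.09 to 0.10). The 2 genes overlap in the deposited positions, and whether counting used the strand is not given in the sources used here, so that reads in the overlap may have been assigned to either or neither.

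The GTPases, which attack the membranes around intracellular pathogens, were the role in which all members rose. Iigp1, an immunity-related GTPase, had 22.7, 25.7 and 38.8 CPM in CP CML and 80.0, 121 and 160 CPM in BC CML. The lowest BC CML value lay far above the highest CP CML value, and the fold change was 4.09 (log2 2.03, SE 0.16, edgeR adjusted p = 8.19e-08). Gbp3 had 36.1, 42.6 and 45.5 CPM in CP CML and 105, 114 and 127 CPM in BC CML, with a log2 fold change of 1.47 (SE 0.05, edgeR adjusted p = 2.25e-13), and its values were close together within each group. Gbp2 had 83.5, 111 and 143 CPM in CP CML and 246, 266 and 329 CPM in BC CML, without overlap, and its log2 fold change was 1.32 (SE 0.11, edgeR adjusted p = 4.04e-08).

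Gbp4, Gbp5 and Gbp7 rose by 0.85, 0.71 and 0.66 on the log2 scale, also with no overlap between groups. Gbp5, Gbp7, Gbp3 and Gbp2 lie in this order on chromosome 3, from chr3:142496934-142522344 (Gbp5) to chr3:142620663-142638008 (Gbp2), and are the genes whose ISRE stretches are given above, while Gbp4 lies on chromosome 5. Ifi47, Irgm1 and Igtp, immunity-related GTPases on chromosome 11, rose by 0.50, 0.38 and 0.35, with overlap. In the deposited positions Irgm2 (chr11:58199556-58222783) has the same start and strand as Igtp (chr11:58199556-58207592) and spans it. The counts of these 2 genes may share reads. Per length, Ifi47 (97.6 and 139 RPKM), Gbp4 (66.1 and 119 RPKM) and Gbp2 (45.6 and 114 RPKM, CP CML and BC CML means) had the highest levels of the GTPases in BC CML. The Gbp genes are near-identical to each other in part, so reads may be split between copies. The copy next in sequence to Gbp2, Gbp2b, which was looked up after its values had been seen, went the other way, with 1.04 to 2.02 CPM in CP CML and 0 to 0.108 CPM in BC CML. In the deposited positions (chr3:142501262-142619176) it starts within Gbp5 and spans Gbp7 and Gbp3 on the same strand, so its count and theirs may share reads.

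Of the remaining genes, Ifi44, an interferon-induced protein whose function is not well defined, had the largest fold change of the 47 at one of the lowest levels. It had 0.98, 1.74 and 2.05 CPM in CP CML and 4.25, 8.74 and 15.5 CPM in BC CML, without overlap, a fold change of 5.63 (log2 2.49, SE 0.27, edgeR adjusted p = 4.38e-07). Ifi35, which binds the STAT partner Nmi, had 39.1, 47.7 and 52.8 CPM in CP CML and 49.2, 57.6 and 65.9 CPM in BC CML and rose by 0.28 (SE 0.08, edgeR adjusted p = 0.00365). Xaf1, an antagonist of the apoptosis inhibitor XIAP, had 40.4, 46.8 and 49.4 CPM in CP CML and 45.3, 52.3 and 62.2 CPM in BC CML and rose by 0.23 (SE 0.07, edgeR adjusted p = 0.0104). Both overlapped between the groups. Rtp4, a chaperone for G protein-coupled receptors, had a log2 fold change of 0.22 and did not pass (edgeR adjusted p = 0.244), and without BC CML replicate 5 it was 0.02.

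The mice within a group did not carry these genes at 1 level. BC CML replicate 5 is also the only library whose name in the labels ends in letters (RP), the meaning of which is not given in the sources used here. BC CML replicate 5 was the highest of the 6 BC CML mice in 34 of the 47 genes, where it was the highest in 17.5% of all genes tested, and it was above the BC CML mean in 45 of the 47. Its median deviation from the group mean was 0.36 on the log2(CPM + 1) scale, while over all genes it was -0.00. The roles were unequally involved. Replicate 5 was highest in 15 of the 16 antiviral effectors, all but Samhd1, in 5 of the 9 GTPases and in 0 of the 4 receptors. BC CML replicate 3 was the lowest mouse in 19 of the 47 genes, against 15.7% of all genes, and BC CML replicate 1 was above the group mean in 44.

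In CP CML the spread was smaller. Replicate 5 of that group was highest in 19 of the 47, and replicates 2 and 7 were lowest in 19 and 14. Their median deviations ran from -0.13 to 0.13. In BC CML replicate 5, the summed myeloid (1531 CPM), B cell (281 CPM), plasmacytoid dendritic cell (333 CPM) and NK cell markers (478 CPM, the lowest of BC CML) did not stand above the range of the other BC CML mice, whereas its proliferation markers summed to 969 CPM against 572 to 717 CPM in the other 5, and its erythroid markers to 71.7 CPM against 41.4 to 69.4 CPM. Their part in its values was not tested.

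**Figure D3:**
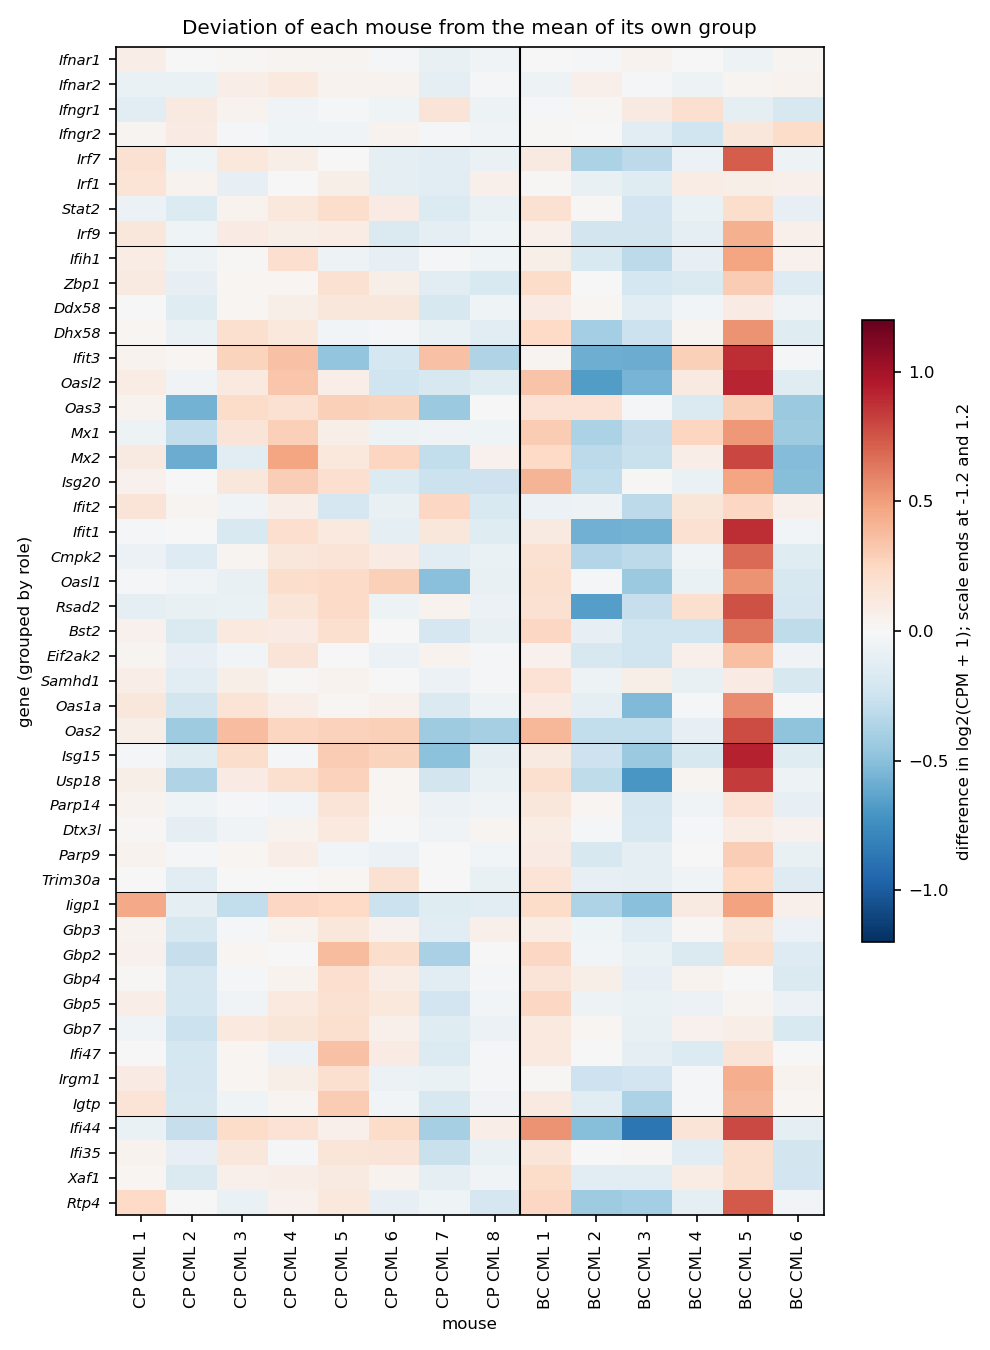
Deviation of each mouse (x axis) from the mean of its own group in log2(CPM + 1), for the 47 genes (y axis, grouped by role), red above and blue below the mean. BC CML replicate 5 is above its group mean in 45 of the 47 genes, with pale cells in the 4 receptors, and replicates 2 and 7 of CP CML are the lowest of their group in 19 and 14 genes.

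Without BC CML replicate 5, 31 of the 47 genes were higher and 7 lower (31.5% and 32.1% of all genes in that fit), and the median log2 fold change was 0.27 in place of 0.45. The number of genes with no overlap and BC CML higher was 17 with and without it, and the number with BC CML lower went from 1 to 3, Irf9, Parp9 and Trim30a (20.0% and 18.9% of all genes without this mouse). Ifit1 (0.27) and Oasl1 (0.32) then no longer passed the test (edgeR adjusted p = 0.0752 and 0.0558), and Dhx58 (-0.35) and Oas2 (-0.67) passed as lower. The receptors and the Gbp genes hardly moved, Ifnar1 from 0.64 to 0.64 and Gbp3 from 1.47 to 1.44.

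**Figure D4:**
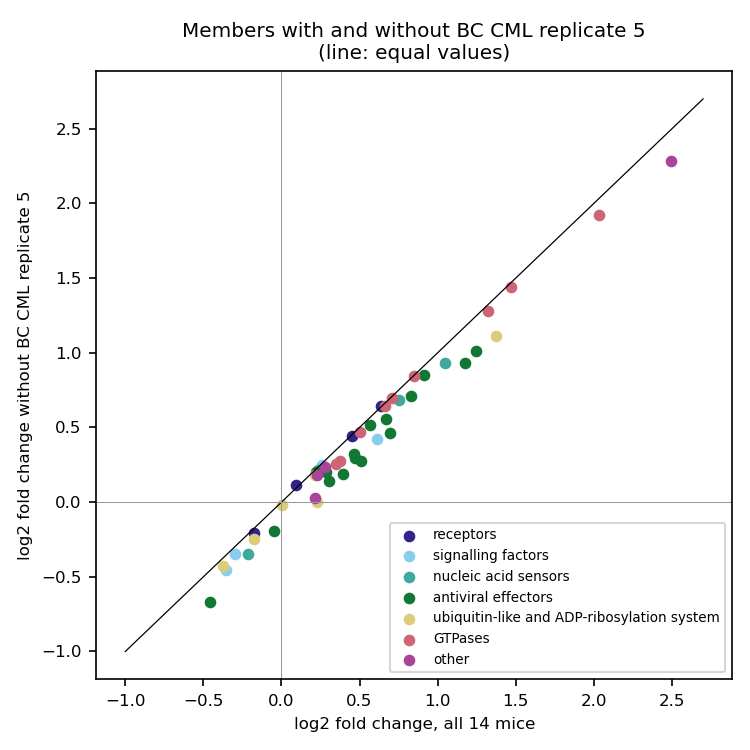
Log2 fold change of BC CML over CP CML with all 14 mice (x axis) and without BC CML replicate 5 (y axis), 1 point per gene coloured by role, with a line of equal values. Receptors and Gbp genes lie at or near the line and most antiviral effectors below it, and the median of the 47 is 0.45 on the x axis and 0.27 on the y axis.

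Summed myeloid markers separated the groups without overlap. A myeloid score, the mean of log2(CPM + 2) over the 16 markers, was also added to the fit as a covariate. Because the myeloid markers went with the group, this fit cannot tell their part from that of the genotype. With it, 23 of the 47 genes were higher and 2 lower, while the share of all genes called higher went to 22.0% and lower to 22.1%, and the median log2 fold change of the 47 was 0.41. The calls of Stat2, Irf9, Irf7, Irf1, Ifit1, Oasl1, Eif2ak2, Mx2, Cmpk2, Parp9, Parp14, Irgm1 and Igtp were lost. Most of these kept the size of their log2 fold change, with -0.35 for Irf9, 0.60 for Irf7, 0.21 for Parp14, 0.36 for Irgm1, 0.30 for both Igtp and Eif2ak2, 0.49 for Oasl1 and 0.50 for Cmpk2, and that of Mx2 was larger (0.94). Those of Stat2 (-0.20), Irf1 (0.19), Ifit1 (0.41) and Parp9 (-0.14) were nearer 0 than without the score. Of the genes that stayed called, Ifngr2 (-0.31), Isg20 (1.05) and Xaf1 (0.36) moved away from 0 by over 1.5 times. Ifnar1 (0.68), Ifnar2 (0.52), Ifih1 (1.04), Isg15 (1.30), Gbp3 (1.49) and Iigp1 (2.00) were as large as before or nearly so. The errors of this fit were larger, with an SE of 0.05 in place of 0.03 for Ifnar1 and 0.09 in place of 0.05 for Gbp3.

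The rest of the pathway was read from a list of 49 genes, of which 29 were tested, 12 were higher, 7 lower and 10 did not pass, against 32.6% and 32.7% of all genes. The interferons themselves were hardly seen. Of 21 interferon genes 17, among them Ifnb1, had 0 reads in every mouse, where a count of 0 allows up to 0.151 to 0.191 CPM, and another 3 had at most 4 reads in any mouse. Ifng, the only one tested, had 6.19, 9.28 and 10.5 CPM in CP CML and 6.51, 11.4 and 16.5 CPM in BC CML, and did not pass (log2 fold change 0.29, SE 0.16, edgeR adjusted p = 0.132).

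The kinases Jak1, Jak2 and Tyk2 did not pass, at -0.01, 0.06 and 0.02 on the log2 scale. Stat3 had 362 to 441 CPM in CP CML and 356 to 389 CPM in BC CML, with a log2 fold change of -0.10 (edgeR adjusted p = 0.0476).

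Of the 8 inhibitors 5 were higher and 2 lower. Ptpn6 (SHP-1, a phosphatase that acts on JAKs) went from 211 to 323 CPM in CP CML to 445 to 575 CPM in BC CML, at a log2 fold change of 0.94. Socs1, the main inhibitor of JAKs in the interferon pathways, had 18.2 to 29.4 and 25.0 to 40.1 CPM and rose by 0.65. Socs3, which acts mostly on cytokine receptors of the gp130 family, had 388 to 524 and 203 to 348 CPM and fell by 0.76, and Ptpn11 rose by 0.37. Among the 13 genes that induce interferon 4 were higher and 4 lower. Tlr7, an endosomal receptor for single-stranded RNA, rose by 1.03 (15.1 to 22.2 and 30.0 to 43.8 CPM) and Irf5, a transcription factor downstream of it, by 0.59, and the kinase Ikbke and the adaptor Myd88 fell by 0.54 and 0.50. Il10rb, a chain of the receptors for interferon-λ and interleukin-10, rose by 0.85 (71.8 to 89.7 and 129 to 173 CPM).

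A second list of 88 other interferon-stimulated genes in the table gave 80 that were tested, of which 47 were higher (58.8%), 14 lower (17.5%) and 19 did not pass, against 32.6% higher and 32.7% lower of all genes tested. Their median log2 fold change was 0.37, against -0.01 over all genes. Those with the largest change among the better expressed were Ly6c1 (18.6 to 28.3 CPM in CP CML and 3.14 to 5.74 CPM in BC CML, log2 fold change -2.51), its paralog Ly6c2 (74.8 to 98.0 and 342 to 474 CPM, 2.22), Ciita, the master regulator of MHC class II (3.32 to 17.4 and 14.4 to 75.6 CPM, 2.14), and Parp12 (19.4 to 24.5 and 53.7 to 68.0 CPM, 1.52). Ly6c1 and Ly6c2 are near-identical in sequence and moved in opposite directions, so that their counts are uncertain. Of the tested paralogs of the Ifit, Oas and Gbp genes, which were looked up after their values had been seen, Ifit3b (0.55) and Oas1b (0.42) were higher, as were Gbp6, Gbp8, Gbp9, Gbp10 and Gbp11 (0.50 to 1.01), and Ifit1bl1 (-0.94), Oas1c (-0.75) and Gbp2b were lower. These paralogs are counted among the 80 tested genes. The shares and the median of this list are therefore no independent check of the 47. In the deposited positions Ifit1bl1 spans Ifit1 and Ifit3b on the opposite strand, and these families share sequence, so with the strand setting not given their counts are uncertain too.

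**Figure D5:**
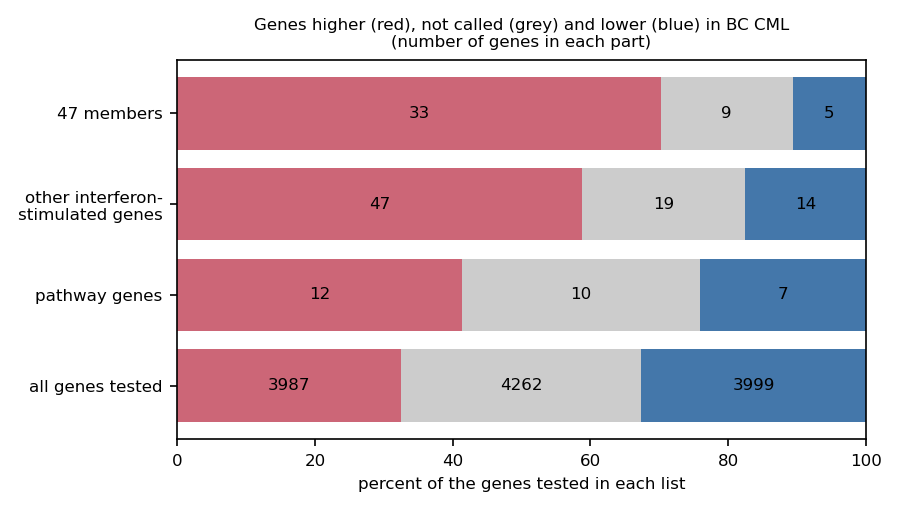
Percent of the genes tested (x axis) that were higher (red), did not pass (grey) or were lower (blue) in BC CML, for the 47 genes, the other interferon-stimulated genes, the pathway genes and all genes tested, with the number of genes written in each segment. The red segment is 70.2% of the 47 genes and 32.6% of all genes tested. The other interferon-stimulated genes include the paralogs that were looked up after their values had been seen.

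The genes were also read for matches to the deleted miRNA. A miRNA represses transcripts that pair with its seed, bases 2 to 8, which is in capitals in the mature sequences from RefSeq.
mmu-miR-142a-5p: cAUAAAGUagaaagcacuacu
mmu-miR-142a-3p: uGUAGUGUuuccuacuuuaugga
In the longest 3′UTR of each gene in GENCODE vM21, the letters that pair with the 3p seed (ACACTAC) were found in 3 of the 47 genes (6.38%), against 6.95% of the 11527 tested genes with a 3′UTR. Those that pair with the 5p seed (ACTTTAT) were found in 4 of the 47 (8.51%), against 15.8%. The 3p matches were in Ifnar1, Ifih1 and Gbp3, which were all higher in BC CML (log2 fold changes 0.64, 1.05 and 1.47), and are shown on the strand of the gene with the match in capitals and the mm10 position of those 7 bases.
Ifnar1 chr16:91506323-91506329 (+): gcacacaagagACACTACacaaattacgt
Ifih1 chr2:62597831-62597837 (-): ttgttttcgctACACTACtgagctaactc
Gbp3 chr3:142573094-142573100 (+): atcccagttgtACACTACagataaattgt
The 5p matches were in Ifi44 (2.49), Irf9 (-0.36), Parp9 (-0.18) and Dtx3l (0.00), with 1 gene higher, 2 lower and 1 that did not pass. The other 40 genes held neither, among them Iigp1, Gbp2, Isg15 and Ifit3. A match of 7 letters is not a shown target, and the share of the 47 with a match lay at or below that of all genes.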

How the data were processed

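Spleen T cells of 14 mice were profiled by RNA-seq (2 × 101 bases). The authors trimmed reads with Trimmomatic and FASTP, aligned them to mm10 with STAR 2.6.0, counted them with HTSeq 0.11.1 and deposited raw counts per gene, with positions and lengths. The annotation and strand setting are not given in the sources used here. Counts were filtered by filterByExpr (12248 of 24091 genes), TMM-normalized and tested in edgeR 4.0.16 (R 4.3.3, limma 3.58.1) by the quasi-likelihood test, with Benjamini-Hochberg adjustment over all genes tested; the likelihood ratio test of edgeR, used in the study, and DESeq2 1.42.0 were alternatives. CPM values use TMM-scaled library sizes, and RPKM divides them by the deposited length. SEs come from the fold change and F statistic. The fits were first tested on simulated counts in which 200 of 12177 genes were changed. The quasi-likelihood test recovered 180 of them (90%), with 10 other calls. In the deposited counts 65.2% of genes were called, so the simulation does not show how the test performs at that share. Depth was 15703702 to 19914531 reads, and no pair of replicates agreed within sampling noise. The 47 genes and the lists were chosen with earlier results of these data known. All receptors and factors, and the 3 called genes of largest change in each other role, were described in full; of the pathway, ligands, kinases and STATs (1 gene is not reported here) and, by role, up to 4 called genes of largest change with an average log2 CPM of at least 3 were named, and likewise 4 of the other list. Replicate numbers do not pair mice, and p-values measure the spread between mice.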

Additional observations from a re-analysis of the deposited data

Results flagged for a closer look

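In 94 groups of values (47 genes in each of the CP CML and BC CML groups), 5 held a mouse whose gap to the next, as a share of the range of its group, was above the 95% limit of Dixon's test, where chance gives 4.7. BC CML replicate 5 held 3 of them, always as the highest. It had 147 CPM of Irf7 (next 94.8 CPM), 49.6 CPM of Isg15 (next 27.7 CPM) and 177 CPM of Irgm1 (next 135 CPM). BC CML replicate 1 had 99.7 CPM of Gbp5 (next 85.9 CPM). CP CML replicate 6 had 297 CPM of Trim30a (next 266.0 CPM).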

How the results depend on the processing

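Of the 47 genes, the number higher and lower was 33 and 5 (32.6% and 32.7% of all genes). Under both edgeR's likelihood ratio test (32.3% and 32.2% of all genes) and DESeq2 (33.2% and 32.3%) it was 35 and 5. RLE factors (33.0% and 32.1% of all genes), library size alone (31.7% and 33.6%) and a CPM filter (33.1% and 33.0%) gave 33 and 5. No filter on low counts gave 32 and 5 (26.0% and 23.5% of all genes). Tested against a 1.5-fold change, 10 of the 47 were higher and 0 lower (11.4% and 4.10% of all genes), with 6 and 0 of the pathway genes and 20 and 4 of the other interferon-stimulated genes. With a myeloid score as a covariate 23 of the 47 were higher and 2 lower (22.0% and 22.1% of all genes). With 1 mouse left out, 31 to 36 of the 47 were higher and 5 to 7 lower, 11 to 13 and 6 to 7 of the pathway genes, and 45 to 48 and 13 to 17 of the other genes. In these fits 31.5% to 32.5% of all genes were higher and 31.2% to 32.6% lower. Replicate numbers gave no pairing of mice (mean correlation of same-numbered deviations -0.03 over 6 numbers). A replicate block gave 32 higher and 6 lower, 11 and 7 in the pathway and 44 and 16 in the other list (30.0% and 29.8% of all genes). That fit was without CP CML replicates 7 and 8, which have no partner. Dtx3l, near 0 throughout, changed sign under library size alone (-0.00492), the replicate block (-0.00124), the myeloid score (-0.024) and without 6 single mice (from -0.016 to 0.041 over all mice left out). Oas1a changed sign without BC CML replicate 3 (from -0.20 to 0.0502 over all mice left out) and Usp18 without BC CML replicate 5 (from -0.00082 to 0.35). Under the block, Oas2 (-0.63) passed as lower and Oasl1 (0.34) no longer passed, whereas with the myeloid score Oas2 was at -0.03 (edgeR adjusted p = 0.951), and without the filter Ifit1 (0.51) no longer passed. The cause was not tested. Few reads limit Ifi44, Mx2 and Oasl1.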
